A study of Mus musculus with 84 samples.

Results

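The hearts of leptin-deficient ob/ob mice were compared with those of wild-type (WT) mice when both had been kept on a high-fat diet (HFD). The libraries were chosen by their labels: heart, HFD, and either genotype, which gives 6 of the 84 libraries of the study, 3 from ob/ob and 3 from WT mice. The whole study sequenced 7 tissues of 12 mice of these genotypes on HFD or a normal diet (ND), and blood work, body composition and organ weights were recorded for the same mice. The ob/ob mouse carries a nonsense mutation of the leptin gene, Lep, and makes no working leptin, whereas the WT mice have an intact leptin gene. The mice were taken after 20 weeks, and the labels leave it unsaid if that is their age or the length of feeding. Likewise the strain or substrain of the WT mice and the composition of the diet are not given in the sources used here. The labels name the tissue as heart and do not say which chambers were taken. Each library is of bulk tissue, which mixes cardiomyocytes with endothelial cells, fibroblasts, smooth muscle, immune cells and any attached fat. In such bulk samples, fewer cells of a type and less RNA per cell cannot be told apart.

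Heart muscle burns mostly fatty acids, and takes up more or less glucose as insulin and fuel supply change. Contraction is set off by calcium that enters through surface channels and is released by the ryanodine receptor of the sarcoplasmic reticulum, and a strained heart re-expresses fetal genes such as those of the natriuretic peptides and skeletal alpha-actin. Leptin acts through its receptor, Lepr, and STAT3, chiefly in the hypothalamus, where it lowers food intake and raises energy use. Mice without it eat more, move less, have a lower body temperature and have high glucocorticoids.

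Body weight on HFD was 50.1, 46.4 and 47.7 in WT and 71.2, 72.3 and 80.8 in ob/ob mice (mice 1, 2 and 3, unit not named in the table), so every ob/ob mouse was heavier. Fat mass in ob/ob mice was 2.51 times that of the WT mice, 18.9 ± 1.10 in WT and 47.4 ± 3.38 in ob/ob mice (SD, n = 3), and no ob/ob value overlapped a WT value. Lean mass was 25.99 ± 1.18 in WT and 23.1 ± 1.42 in ob/ob mice, lower in all 3 ob/ob mice. Leptin in blood was 850.2, 636 and 637 in WT and 0, 0 and 0 in ob/ob mice (ng/ml), and a value of 0 is also listed for a WT mouse on ND. Fasting glucose was 239, 259 and 188 in WT and 110.0, 118 and 117 in ob/ob mice (unit not named), so the ob/ob mice had the lower values, whereas glucose in the blood work overlapped between the genotypes, at 353 ± 64.7 in WT and 352 ± 75.8 in ob/ob mice (mg/dL). Liver weight was 2.63 ± 0.390 in WT and 3.32 ± 0.268 in ob/ob mice, and AST, an enzyme released by injured liver and muscle, was 269.7 ± 66.9 in WT and 575 ± 158 in ob/ob mice (U/L). Free fatty acids (479 ± 67.6 in WT and 545 ± 27.5 in ob/ob mice, uEq/L), triglyceride (66.3 ± 24.1 in WT and 70 ± 13.9 in ob/ob mice, mg/dL) and cholesterol (238 ± 18.6 in WT and 283 ± 80.6 in ob/ob mice, mg/dL) overlapped. In all, 11 of 18 measures did not overlap between 3 and 3 mice, each with an exact two-sided permutation p of 0.1, the smallest this design allows, and an adjusted p of 0.164, so none could pass 0.05. No heart weight is in the tables used here.

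The 6 libraries held 10966094 to 12374587 fragments counted on genes, of which 32.9 to 36.8 percent were mitochondrially encoded. Correlation of log expression was 0.9874 to 0.9918 between hearts of 1 group and 0.9725 to 0.9846 between genotypes over the 12 hearts, a description over genes that share their libraries, and the first principal component (36.7 percent of the variance) separated the genotypes. Defining cardiomyocyte genes were abundant in every library, with a summed level of the 24 ventricular sarcomere genes of 56057 to 62218 CPM in WT and 62104 to 73936 CPM in ob/ob hearts. Levels below are CPM, counts scaled to a common library size, given for mice 1, 2 and 3 in that order. Fold changes are log2 values of ob/ob minus WT on HFD with the standard error of the fit, and genes are called, or said to rise or fall, when the adjusted p of edgeR's quasi-likelihood test over all tested genes is under 0.05. The p-values compare these 3 and 3 mice, with the spread estimated over all 12 hearts, those on ND included.

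One WT library stood apart by its atrial and fat transcripts. The atrial light chain Myl7 was at 164, 0.318 and 0.282 CPM in WT and 1.88, 0.430 and 0.270 CPM in ob/ob hearts, and the second atrial light chain Myl4 was at 155, 1.11 and 1.69 CPM in WT and 1.54, 1.46 and 2.61 CPM in ob/ob hearts. Sarcolipin, Sln, an atrial inhibitor of the calcium pump, was at 63.7, 0.0795 and 0.0940 CPM in WT and at 0 in all 3 ob/ob hearts. In each case WT mouse 1 was far above the other two. The same library had the most fat transcripts, with adiponectin, Adipoq, at 4.44, 0.477 and 0.282 CPM in WT and 0.171, 0.258 and 0.541 CPM in ob/ob hearts and Lep at 2.43, 0.159 and 0.0940 CPM in WT and 0.171, 0.258 and 0.0901 CPM in ob/ob hearts. The calls of Myl7 (-5.97, adjusted p = 0.0153), Myl4 (-4.82, adjusted p = 0.0153), Car3 (-2.88, adjusted p = 0.0249) and Pck1 (-3.25, adjusted p = 0.0404) were lost without this library, where the values were 1.49 (adjusted p = 0.320), 0.42 (adjusted p = 0.566), -1.10 (adjusted p = 0.326) and -1.504 (adjusted p = 0.390). Of 12 atrial markers 9 were tested, 4 rose and 3 fell, and without this library 3 rose and 1 fell. The summed level of the list, which Myh6 dominates, was 6185 to 6719 CPM in WT and 8115 to 10297 CPM in ob/ob hearts, and without Myh6 it was 445 to 934 CPM in WT and 537 to 617 CPM in ob/ob hearts. Mesothelial and epicardial markers went the other way. Their summed level was 11.3 to 36.4 CPM in WT and 34.4 to 89.8 CPM in ob/ob hearts, overlapping between the genotypes. Without Upk3b, the most abundant gene of the list, it was 9.87 to 25.8 CPM in WT and 27.7 to 69.5 CPM in ob/ob hearts, without overlap. Of the markers, 1 of 9, Wt1, a transcription factor of the epicardium, was called (1.33, adjusted p = 0.00122). The number called was 4 without WT ND mouse 2 and 2 without WT ND mouse 3, 3 with the mouse number as a replicate block, 5 of 8 with the 6 HFD libraries alone and 9 of 10 without the filter on low counts, each time higher in ob/ob hearts. Haemoglobin and red cell genes, 0 of 10 called, summed to 2039 to 2862 CPM in WT and 2587 to 4701 CPM in ob/ob hearts. The number called higher was 2 without WT ND mouse 1 and 1 without ob/ob HFD mouse 1, 2 with the 6 HFD libraries alone and 7 without the filter on low counts. Lung and thymus markers (Sftpc, Sftpb, Scgb1a1, Dntt, Rag1 and Ptcra) were at 0 in all 6 libraries, as was Ucp1, the uncoupling protein of brown fat. Of 18 fat cell markers 8 were tested and 3 fell, Pck1, Car3 and Aqp7, the glycerol channel of fat cells (-0.83, adjusted p = 1.27e-04), with a median of -0.22 and a count of 1 without WT HFD mouse 1, ob/ob HFD mouse 1, ob/ob HFD mouse 2 or ob/ob HFD mouse 3. Their summed level was 129.9 to 169 CPM in WT and 127 to 136 CPM in ob/ob hearts. Of 16 skeletal muscle markers 9 were tested and 1, Casq1, fell, with a count of 0 without WT ND mouse 1, WT HFD mouse 1, WT HFD mouse 2, ob/ob ND mouse 1, ob/ob HFD mouse 2 or ob/ob HFD mouse 3 and 2 without ob/ob ND mouse 2 or ob/ob ND mouse 3, and Myh2 and Tnnc2 were at 0 in all 6 libraries. Of 10 conduction system markers 7 were tested and 1, Smoc2, fell (-0.43, adjusted p = 0.0141), with a count of 0 without WT HFD mouse 1 or ob/ob HFD mouse 2 and 2 without WT HFD mouse 3. Of 12 lung, liver and thymus markers 3 passed the filter and 0 were called. The share of tested markers called was 77.8 percent for atrial, 37.5 percent for fat cell and 14.3 percent for conduction system markers. It was 11.1 percent for mesothelial and for skeletal muscle markers, against 17.2 percent of all tested genes.

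**Figure D1:**
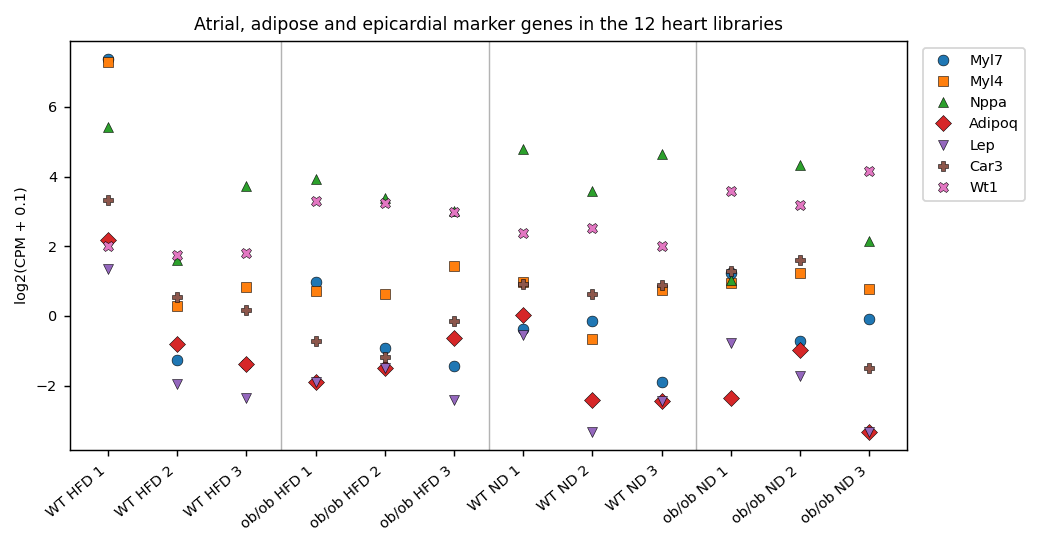
Levels of 7 marker genes as log2(CPM + 0.1) in each of the 12 heart libraries, named by genotype, diet and mouse number. The atrial genes Myl7 and Myl4 and the fat genes Adipoq and Lep are highest in WT HFD mouse 1, while Wt1 is higher in all 3 ob/ob hearts than in all 3 WT hearts on HFD.

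Fold changes on HFD also followed the exon length of the genes, and the cause was not tested. By summed exon length, the median log2 fold change ran from -0.22 for 919 genes under 1 kb to 0.10 for 2012 genes over 8 kb. Among the shortest genes 1.85 percent were called higher and 16.3 percent lower in ob/ob hearts, and among the longest 17.2 percent were higher and 4.17 percent lower. On ND the medians were -0.04 and -0.01. The gap between the median log2(CPM + 1) of the longest and shortest genes was 1.59, 1.65 and 1.47 in WT and 1.68, 1.82 and 1.95 in ob/ob hearts on HFD, so each ob/ob library lay above each WT library, and 1.51 to 1.75 on ND in either genotype. Counts of gene lists are also given after an offset that removes the trend with exon length from each library, a setting chosen once the values had been seen, and 18 of 190 calls of named genes were lost with it.

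**Figure D2:**
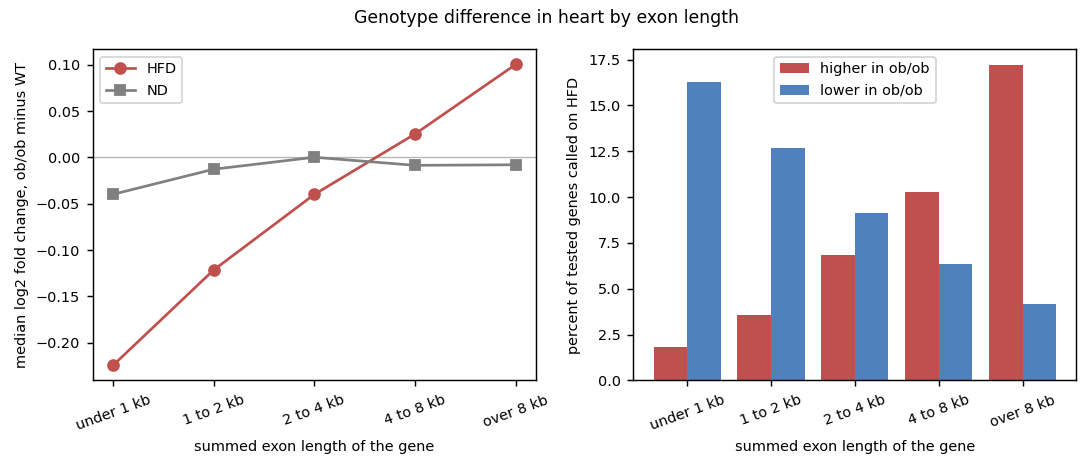
Genotype difference in heart by summed exon length in 5 classes. Left, the median log2 fold change of ob/ob minus WT on HFD climbs from -0.22 to 0.10 and that on ND stays near 0. Right, the percent of genes called higher on HFD grows with length and the percent called lower shrinks.

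Of 13673 genes tested, 2349 differed between ob/ob and WT hearts on HFD (17.2 percent), 1206 higher in ob/ob (8.82 percent) and 1143 lower (8.36 percent). Of these, 159 were at least 2-fold higher (1.16 percent) and 172 at least 2-fold lower (1.26 percent), while the median over all genes was -0.01. In 4881 genes (35.7 percent) the 3 and 3 libraries did not overlap. List counts above and below are to be read beside these shares over all tested genes. The number called was 1450 without WT HFD mouse 1, 1558 without WT HFD mouse 2 and 1348 without ob/ob HFD mouse 3, and it lay between 1591 and 2410 without any other single library.

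The 10 genes with the highest and the 10 with the lowest fold change among those called, of regular name, of mean log2 CPM of at least 1 and without overlap were as follows. Snhg11 was at 0.335, 0.318 and 0.752 CPM in WT and 5.04, 10.3 and 7.84 CPM in ob/ob hearts (log2 fold change 4.05 ± 0.41, adjusted p = 2.41e-05). Snhg11 is a long noncoding RNA that hosts small nucleolar RNAs, and the ob/ob values lay far above the low WT values. Trp63 was at 0.419, 0.239 and 0.282 CPM in WT and 3.16, 4.99 and 5.05 CPM in ob/ob hearts (log2 fold change 3.77 ± 0.49, adjusted p = 1.23e-04). Trp63 encodes p63, a transcription factor of the p53 family best known from stratified epithelia. Its values in WT mice 2 and 3 equal 3 counts in those libraries, so the size of its fold change is uncertain. Angiotensinogen (Agt), the precursor of the angiotensins, was at 1.68, 3.42 and 2.73 CPM in WT and 7.95, 8.18 and 15.96 CPM in ob/ob hearts (log2 fold change 2.02 ± 0.32, adjusted p = 6.19e-04). Wdfy1 was at 6.45, 6.76 and 4.42 CPM in WT and 23.9, 23.3 and 22.5 CPM in ob/ob hearts (log2 fold change 1.97 ± 0.13, adjusted p = 2.02e-07), with little spread within either genotype. Wdfy1 encodes an endosomal adaptor of Toll-like receptor signalling. Atf3 was at 8.71, 29.7 and 16.5 CPM in WT and 65.7, 60.3 and 70.7 CPM in ob/ob hearts (log2 fold change 1.83 ± 0.34, adjusted p = 0.00183), and this stress-induced transcription factor was lowest in WT mouse 1. The other risers were Fam222a (2.37), the 2-pore potassium channel gene Kcnk1 (2.21), the adenylyl cyclase Adcy1 (1.87), the matrix proteoglycan gene Spock2 (1.86) and Cbarp (1.77), a regulator of voltage-gated calcium channels whose call was lost without WT HFD mouse 3 (adjusted p up to 0.0565), ob/ob HFD mouse 1 or ob/ob HFD mouse 3.

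Among the 10 lowest, smooth muscle alpha-actin (Acta2) was at 32.8, 28.3 and 101 CPM in WT and 9.92, 11.4 and 14.6 CPM in ob/ob hearts (log2 fold change -2.17 ± 0.42, adjusted p = 0.00254). WT mouse 3 was far above the other WT hearts, which were still above every ob/ob heart, the call was kept under all alternatives tried, and the log2 fold change was -1.35 without WT HFD mouse 3. Of the 14 markers of smooth muscle and pericytes, 3 fell and 1 rose, with a median of 0.00, and their summed level overlapped (1983 to 2151 CPM in WT and 2141 to 2328 CPM in ob/ob hearts). The number that rose was 0 without WT HFD mouse 2 or ob/ob HFD mouse 3 and 2 without ob/ob HFD mouse 1, and the number that fell was 1 without ob/ob HFD mouse 1. Fcrls was at 16.7, 12.6 and 11.8 CPM in WT and 3.33, 3.10 and 3.06 CPM in ob/ob hearts (log2 fold change -2.11 ± 0.22, adjusted p = 2.90e-05), and the 3 ob/ob values lay close together far below the WT values. Fcrls encodes a scavenger receptor-like protein of macrophages. Cxcl9 was at 8.71, 9.70 and 5.92 CPM in WT and 2.48, 2.41 and 2.16 CPM in ob/ob hearts (log2 fold change -1.79 ± 0.23, adjusted p = 1.34e-04). Cxcl9 is a chemokine induced by interferon-gamma. The interferon-induced genes Ifi44 (-1.65) and Tgtp2 (-1.51) also fell, the latter uncertain because it has a near-identical copy, as did the endocytic receptor gene Cubn (-1.72). The lowest fold change was that of Car3, whose call was lost without WT mouse 1 as given above or without any 1 ob/ob HFD heart, and Nppb and Acta1 are described with the stress genes.

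**Figure D3:**
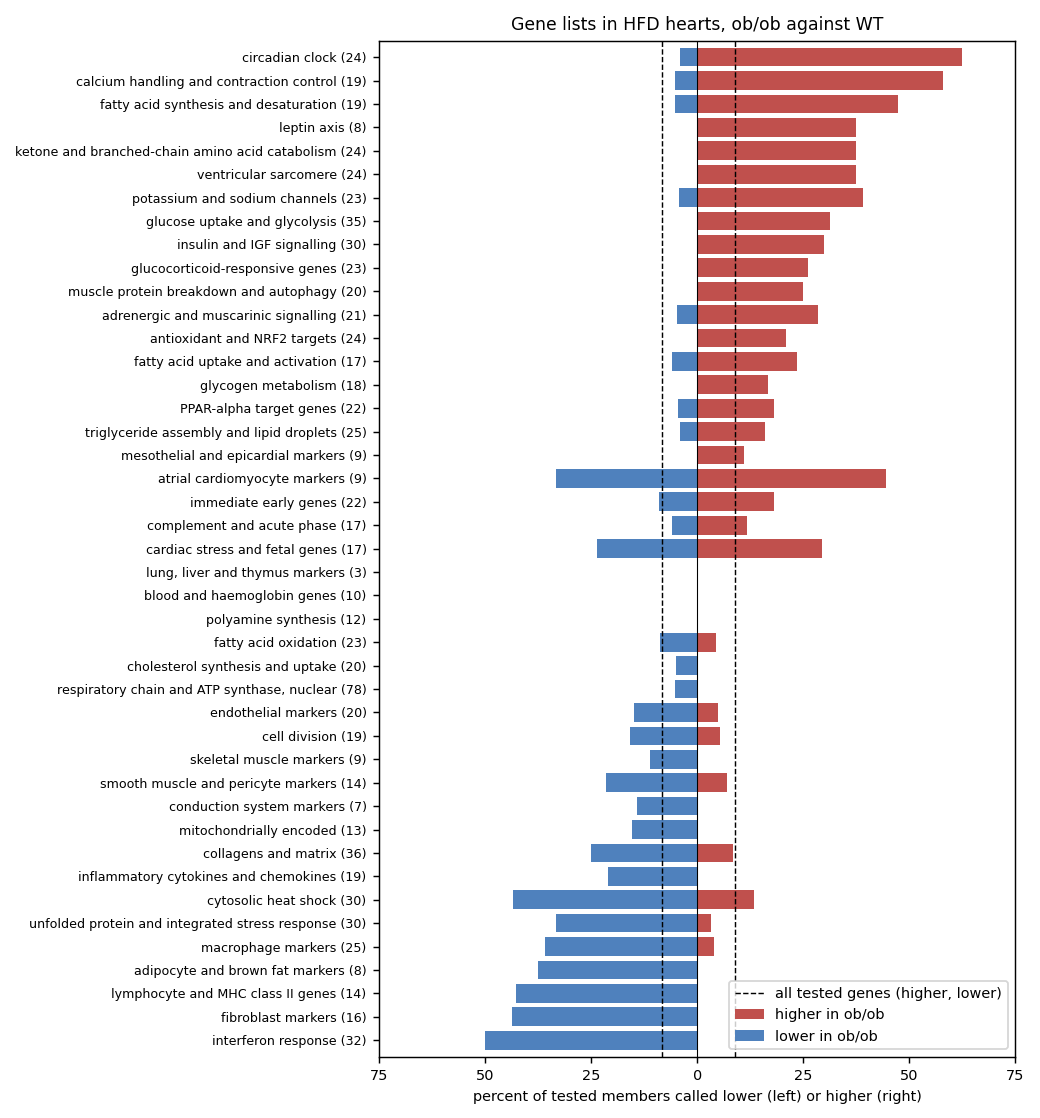
For each gene list (number of tested members in brackets), bars show the percent of members called lower in ob/ob hearts (left of 0) and higher (right of 0) on HFD. Dashed lines mark the same percents over all tested genes, 8.36 lower and 8.82 higher. Clock, calcium and fatty acid synthesis genes have the largest shares of higher members, and interferon, fibroblast and heat shock genes the largest shares of lower members.

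Genes of cardiac strain did not move as 1 group. Of 17 tested, 5 rose and 4 fell, with a median of 0.07. B-type natriuretic peptide (Nppb), which the ventricle releases under stretch, was at 121, 123 and 149.9 CPM in WT and 44.5, 35.02 and 25.4 CPM in ob/ob hearts (log2 fold change -1.91 ± 0.30, adjusted p = 6.63e-04). All ob/ob hearts lay far below all WT hearts. Its atrial relative Nppa was at 43.1, 2.94 and 13.1 CPM in WT and 15.2, 10.4 and 8.02 CPM in ob/ob hearts, overlapping and not called (-0.81, adjusted p = 0.437), with the highest value in the WT library rich in atrial genes, and without that library the difference had the opposite sign (0.53, adjusted p = 0.652). Skeletal alpha-actin (Acta1), of the fetal programme, was at 204, 129 and 89.03 CPM in WT and 60.2, 34.2 and 49.4 CPM in ob/ob hearts (log2 fold change -1.56 ± 0.30, adjusted p = 0.00239), again without overlap. Gdf15, a stress cytokine, was at 1.68, 1.75 and 1.03 CPM in WT and 0.427, 0.344 and 0.361 CPM in ob/ob hearts, low in both groups (log2 fold change -1.96 ± 0.38, adjusted p = 0.00272). The slow myosin gene Myh7, another fetal marker in mice, was at 121, 106 and 60.2 CPM in WT and 108, 88.6 and 106 CPM in ob/ob hearts and was not called (0.07, adjusted p = 0.858). Higher in ob/ob hearts were the intercalated disc protein gene Xirp1 (0.82), the LIM protein gene Fhl1 (0.35) and the matricellular growth factor Ccn2, at 53.4, 48.4 and 29.6 CPM in WT and 58.7, 159 and 110.1 CPM in ob/ob hearts (log2 fold change 1.32 ± 0.28, adjusted p = 0.00428).

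More sarcomere genes were higher than lower in ob/ob hearts. Of 24 tested members 9 rose and 0 fell, with a median of 0.27, and the count of risers was 8 after the offset on exon length, with a median of 0.18. The M-line protein gene Myom2 was at 445, 394 and 338 CPM in WT and 833, 630.4 and 879 CPM in ob/ob hearts (log2 fold change 0.99 ± 0.14, adjusted p = 3.20e-04). No ob/ob value overlapped. Telethonin (Tcap), a Z-disc protein, was at 700.5, 631 and 963 CPM in WT and 1326, 1098 and 1471 CPM in ob/ob hearts (log2 fold change 0.76 ± 0.14, adjusted p = 0.00147), and with 948 bases of exon it is among the short genes, which were more often lower. The main adult myosin, Myh6, was at 5601, 6274 and 5739.6 CPM in WT and 7948, 7556 and 9681 CPM in ob/ob hearts (log2 fold change 0.52 ± 0.10, adjusted p = 0.00326). Cardiac troponin T, Tnnt2 (0.53), myosin-binding protein C, Mybpc3 (0.61), and Myom1 (0.57) rose as well. Myom2 has over 8 kb of exon and Tnnt2, Myh6, Myom1 and Mybpc3 have 4 to 8 kb, classes in which more genes were called higher than lower.

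Genes of calcium handling rose most often among the contractile groups: 11 of 19 rose and 1 fell (Casq1, the skeletal calsequestrin), with a median of 0.29. This count was sensitive to single hearts, at 4 without WT HFD mouse 1 or ob/ob HFD mouse 3, 6 without WT HFD mouse 2 and 7 without ob/ob HFD mouse 2, and 8 rose after the offset on exon length. The myosin light chain kinase family member Mylk4 was at 53.4, 55.04 and 59.4 CPM in WT and 111, 119 and 148 CPM in ob/ob hearts (log2 fold change 1.17 ± 0.14, adjusted p = 5.55e-05), with a wide gap between the groups. Junctophilin 2 (Jph2), which ties the sarcoplasmic reticulum to the surface membrane, was at 234, 238 and 293 CPM in WT and 405, 357 and 428 CPM in ob/ob hearts (log2 fold change 0.64 ± 0.11, adjusted p = 0.00153). The sodium-calcium exchanger Slc8a1 (0.64) and the ryanodine receptor Ryr2 (0.63) rose under all alternatives tried. Atp2a2, the calcium pump SERCA2, was at 5392, 6506 and 6348 CPM in WT and 7061, 8054 and 8397 CPM in ob/ob hearts (log2 fold change 0.37 ± 0.11, adjusted p = 0.0311), a call lost without WT mouse 1 (0.29, adjusted p = 0.120), ob/ob mouse 2 or ob/ob mouse 3 of the HFD groups, and its inhibitor phospholamban, Pln, overlapped at 4939, 5524 and 6213 CPM in WT and 5918, 5576 and 5844 CPM in ob/ob hearts (0.06, adjusted p = 0.740).

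Among 23 potassium and sodium channel genes, 9 rose and 1 fell, with a median of 0.27, and 9 rose after the offset on exon length. The lowest count without a single library was 6. Kcnj2, which carries the inward rectifier current that holds the resting potential, was at 13.9, 18.3 and 19.7 CPM in WT and 37.4, 38.9 and 37.5 CPM in ob/ob hearts (log2 fold change 1.13 ± 0.15, adjusted p = 1.80e-04). The ob/ob values were nearly equal and all far above the WT values. The hERG-type channel Kcnh2 was at 26.4, 28.3 and 35.5 CPM in WT and 54.02, 50.8 and 55.8 CPM in ob/ob hearts (log2 fold change 0.83 ± 0.12, adjusted p = 2.79e-04). Its groups did not overlap. The second inward rectifier Kcnj12 (0.82), the ATP-sensitive channel subunit Kcnj11 (0.58) and the skeletal sodium channel Scn4a (0.67) rose too, and Kcnip2, an accessory subunit of the transient outward current, fell (-0.42, adjusted p = 0.00219).

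Of 21 adrenergic and muscarinic signalling genes, 6 rose and 1 fell, with a median of 0.19, but the count of risers was 3 without WT HFD mouse 1 or ob/ob HFD mouse 2 and 2 without ob/ob HFD mouse 3. The phosphodiesterase Pde4d, which breaks down cyclic AMP, was at 10.6, 11.1 and 11.4 CPM in WT and 25.4, 22.3 and 23.2 CPM in ob/ob hearts (log2 fold change 1.10 ± 0.13, adjusted p = 7.82e-05). Grk5, a kinase that desensitises adrenergic receptors, went the other way, at 43.1, 44.4 and 48.6 CPM in WT and 25.4, 29.5 and 25.1 CPM in ob/ob hearts (log2 fold change -0.76 ± 0.10, adjusted p = 1.02e-04). The muscarinic M2 receptor gene Chrm2, through which the vagus slows the heart, was at 36.6, 37.1 and 43.3 CPM in WT and 69.3, 66 and 65.8 CPM in ob/ob hearts (log2 fold change 0.78 ± 0.11, adjusted p = 3.44e-04). For each of these 3 genes the groups were far apart compared with the spread within them. Chrm2 lies within 10 Mb of Lep on chromosome 6, and chromosome flanking a mutation is carried along when it is crossed into another strain.

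The clearest change among lipid genes was in fatty acid synthesis, where 9 of 19 rose and 1 fell, with a median of 0.44. The count of risers was 5 without WT HFD mouse 2 or ob/ob HFD mouse 3, and 9 after the offset on exon length. Scd4, a stearoyl-CoA desaturase of the heart, was at 12.3, 11.1 and 11.8 CPM in WT and 34.7, 42.3 and 34.8 CPM in ob/ob hearts (log2 fold change 1.67 ± 0.16, adjusted p = 1.96e-05). Srebf1, the transcription factor that turns on the pathway in response to insulin, was at 16.9, 14.2 and 15.5 CPM in WT and 28.98, 30.03 and 34.2 CPM in ob/ob hearts (log2 fold change 0.997 ± 0.11, adjusted p = 4.33e-05). In both genes every ob/ob heart was well above every WT heart. Fatty acid synthase (Fasn) was at 9.72, 8.35 and 6.58 CPM in WT and 13.6, 12.3 and 14.8 CPM in ob/ob hearts (log2 fold change 0.72 ± 0.14, adjusted p = 0.00237), and acetyl-CoA carboxylase 1 (Acaca) at 4.69, 5.97 and 4.04 CPM in WT and 9.66, 6.97 and 8.47 CPM in ob/ob hearts (log2 fold change 0.76 ± 0.18, adjusted p = 0.00822). Thrsp, a small protein linked to lipogenesis, was the member that fell (-0.47, adjusted p = 0.0125), a call lost without WT mouse 2 or ob/ob mouse 3 (adjusted p up to 0.0602). Of 20 cholesterol synthesis and uptake genes, 0 rose and 1 fell (Dhcr7, -0.70 (adjusted p = 0.0247)), with a median of -0.03 and a count of 0 without WT HFD mouse 1, ob/ob HFD mouse 1 or ob/ob HFD mouse 2 and 2 without ob/ob HFD mouse 3.

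Of 17 genes of fatty acid uptake and activation, 4 rose and 1 fell with a median of 0.03, and the risers were 2 without WT HFD mouse 1, WT HFD mouse 2 or ob/ob HFD mouse 2. Of 25 genes of triglyceride assembly and lipid droplets, 4 rose and 1 fell, with a median of 0.07. The share called was 20 percent, against 17.2 percent of all tested genes. The risers were 1 without WT HFD mouse 3 and 2 without ob/ob HFD mouse 3. Lipoprotein lipase (Lpl), which frees fatty acids from circulating triglyceride at the vessel wall, was at 2801, 3526 and 3045 CPM in WT and 4463, 5169 and 5187 CPM in ob/ob hearts (log2 fold change 0.66 ± 0.11, adjusted p = 0.00118). Dgat2, which makes triglyceride, was at 173, 198 and 182 CPM in WT and 329, 259.8 and 299 CPM in ob/ob hearts (log2 fold change 0.68 ± 0.12, adjusted p = 0.00104). Both were higher in each ob/ob heart. The acyl-CoA synthetases moved apart, with Acsl6 higher (0.63) and Acsl5 lower, at 28.9, 25.6 and 23.1 CPM in WT and 15.6, 17.1 and 15.96 CPM in ob/ob hearts (log2 fold change -0.67 ± 0.10, adjusted p = 3.90e-04). The fatty acid translocase Cd36 overlapped, at 2341, 2732 and 2569.5 CPM in WT and 2450.1, 2752 and 2539 CPM in ob/ob hearts (0.02, adjusted p = 0.914), as did the lipid droplet proteins Plin2 (-0.10, adjusted p = 0.547) and Plin5 (0.13, adjusted p = 0.427).

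Few genes of fatty acid oxidation were called. Of 23 tested genes 1 rose and 2 fell, with a median of -0.04, and all 3 (Cpt1a, Cpt2 and Ech1) were close to the threshold, and their calls were lost without several single libraries. The number of risers was 0 without WT HFD mouse 1, WT HFD mouse 2, WT HFD mouse 3, ob/ob HFD mouse 1 or ob/ob HFD mouse 2 and 2 without ob/ob ND mouse 1 or ob/ob ND mouse 3. The number of fallers was 0 without WT ND mouse 1, WT ND mouse 3, WT HFD mouse 2, WT HFD mouse 3, ob/ob ND mouse 1, ob/ob HFD mouse 1, ob/ob HFD mouse 2 or ob/ob HFD mouse 3 and 1 without ob/ob ND mouse 2. After the offset on exon length 2 rose and 0 fell. The muscle carnitine palmitoyltransferase Cpt1b was at 8.63, 8.75 and 6.67 CPM in WT and 11.1, 11.7 and 9.74 CPM in ob/ob hearts (0.43, adjusted p = 0.0551), higher in each ob/ob heart but not called. Targets that respond to fatty acids through PPAR-alpha, Pdk4 (-0.11, adjusted p = 0.821), Ucp3 (0.50, adjusted p = 0.0979) and Angptl4 (-0.22, adjusted p = 0.593), were not called, and Pdk4 ranged widely within the ob/ob group (875, 1787 and 543 CPM). The coactivator Ppargc1a, a driver of mitochondrial genes, was at 72.8, 106 and 110.1 CPM in WT and 199, 253 and 231 CPM in ob/ob hearts (log2 fold change 1.24 ± 0.16, adjusted p = 1.23e-04). Ppara, the receptor itself, was at 18.4, 23.2 and 22.1 CPM in WT and 34.96, 27.1 and 41.2 CPM in ob/ob hearts (log2 fold change 0.69 ± 0.13, adjusted p = 0.00196), and Ppargc1b rose as well (0.79). Among the 22 PPAR-alpha targets in the list, which holds these regulators, 4 rose and 1 fell (median 0.09). The faller, Cyp4b1, was lost under several alternatives, the count of fallers being 0 without WT ND mouse 3, WT HFD mouse 1, WT HFD mouse 2, ob/ob HFD mouse 1 or ob/ob HFD mouse 3, 3 without ob/ob ND mouse 3 and 2 without ob/ob HFD mouse 2, and 0 after the offset on exon length.

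In glucose uptake and glycolysis 11 of 35 genes rose and 0 fell, with a median of 0.20. The count was 4 without WT HFD mouse 1 or ob/ob HFD mouse 3, 6 without WT HFD mouse 2 and 5 without ob/ob HFD mouse 1, and 12 after the offset on exon length. The insulin-responsive transporter Slc2a4 (GLUT4) was at 149, 197 and 174 CPM in WT and 251, 245 and 273 CPM in ob/ob hearts (log2 fold change 0.57 ± 0.10, adjusted p = 0.00184). No values overlapped. Slc2a1, the insulin-independent transporter GLUT1, was at 5.19, 8.51 and 5.64 CPM in WT and 7.44, 6.80 and 9.65 CPM in ob/ob hearts and was not called (0.29, adjusted p = 0.301). Pdp2, the phosphatase that switches pyruvate dehydrogenase on, was at 10.9, 13.04 and 14.2 CPM in WT and 24.2, 19.3 and 31.6 CPM in ob/ob hearts (log2 fold change 0.98 ± 0.16, adjusted p = 8.10e-04). Its partner in the opposite direction is the kinase Pdk4 given above. The lactate and ketone carrier Slc16a1 (0.62) and Gapdh (0.44) also rose, as did hexokinase 2, Hk2 (0.53, adjusted p = 0.0148), whose call was lost without WT HFD mouse 1 or ob/ob HFD mouse 3. Of 18 glycogen genes 3 rose and 0 fell, 16.7 percent called against 17.2 percent of all tested genes. They were glycogen synthase Gys1 (0.54), the phosphorylase kinase subunit Phka1 (0.72) and the targeting subunit Ppp1r3a (0.78). The median was 0.18, and the count was 5 without ob/ob HFD mouse 1.

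Of 30 genes of insulin and IGF signalling 9 rose and 0 fell, with a median of 0.13. The count was 5 without WT HFD mouse 2, ob/ob HFD mouse 2 or ob/ob HFD mouse 3 and 4 without WT HFD mouse 3, and 7 after the offset on exon length, with a median of 0.07. Pik3r1, the regulatory subunit of phosphoinositide 3-kinase, was at 93.1, 87.8 and 97.9 CPM in WT and 151, 164 and 188 CPM in ob/ob hearts (log2 fold change 0.85 ± 0.12, adjusted p = 1.81e-04). All 3 ob/ob hearts were well above the WT hearts. The kinase Akt1 also rose (0.44). The insulin receptor Insr (0.17, adjusted p = 0.266) and its substrates Irs1 (0.45, adjusted p = 0.110) and Irs2 (0.47, adjusted p = 0.151) were not called. In ketone and branched-chain amino acid catabolism, 9 of 24 rose and 0 fell, with a median of 0.25 and a count of 5 without WT HFD mouse 1 and 13 after the offset on exon length. Bdh1, the first enzyme of ketone use in mitochondria, was at 32.7, 51.2 and 21.1 CPM in WT and 67.96, 96.9 and 86.5 CPM in ob/ob hearts (log2 fold change 1.25 ± 0.21, adjusted p = 9.97e-04). WT mouse 2 was the highest of the WT hearts and still below every ob/ob heart. Valine and leucine breakdown was represented by Aldh6a1 (0.50), Ivd (0.44) and Dbt (0.43), each higher.

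Few nuclear genes of the respiratory chain and ATP synthase were called. Of 78 tested, 0 rose and 4 fell (Ndufa3, Ndufb11, Cox7a1 and Atp5g2), with a median of -0.11, and the number that fell was 8 without WT ND mouse 2, 1 without WT HFD mouse 2 or ob/ob HFD mouse 2, 0 without WT HFD mouse 3 or ob/ob HFD mouse 3 and 9 without ob/ob HFD mouse 1. After the offset on exon length 0 fell and the median was 0.005. Cox7a1, with 535 bases of exon, a heart and muscle subunit of cytochrome oxidase, was at 930.1, 1029 and 1153 CPM in WT and 841, 809 and 692 CPM in ob/ob hearts (log2 fold change -0.41 ± 0.11, adjusted p = 0.0161). The call was lost without WT HFD mouse 3 or ob/ob HFD mouse 3, and after that offset the value was -0.18 (adjusted p = 0.177). On the mitochondrial chromosome 31 genes were tested, and 13 fell and 0 rose (41.9 percent called, against 17.2 percent of all tested genes). Among the genes called there, 4 differed at least 2-fold. The list held only the 13 protein-coding genes of this chromosome, of which 0 rose and 2 fell, with a median of -0.13. Most calls on this chromosome were thus outside its protein-coding genes. The number of list members that fell was 1 after the offset on exon length, with a median of 0.045. It was 0 without WT HFD mouse 1, ob/ob HFD mouse 1 or ob/ob HFD mouse 3 and 1 without any other HFD heart. The count over all 31 genes was not repeated under these settings. Of the 2 list members that fell, mt-Atp8, which shares bases with its neighbour mt-Atp6, was at 534, 12.8 and 61.01 CPM in WT and 13.8, 11.9 and 14.7 CPM in ob/ob hearts, an overlap with 1 extreme value in WT mouse 1, and its difference was -1.44 (adjusted p = 0.320) without that library. The other, mt-Nd3 (-0.61, adjusted p = 0.0340), was not called without any 1 of the 6 HFD hearts or after the offset on exon length.

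Nnt stood out among mitochondrial genes. It encodes the transhydrogenase of the inner membrane that makes NADPH, and it was at 273, 321 and 289.7 CPM in WT and 715, 652 and 782 CPM in ob/ob hearts (log2 fold change 1.28 ± 0.09, adjusted p = 6.98e-07). The fold change on ND was 1.14, and on HFD it was 1.89 (adjusted p = 0.00159) in aorta, 1.76 (adjusted p = 7.19e-06) in liver and 1.06 (adjusted p = 0.362) in skeletal muscle. The C57BL/6J substrain is known to carry a deletion within Nnt. The substrain of these mice is not given in the sources used here. Among the 24 antioxidant genes listed with it, 5 rose and 0 fell (20.8 percent called, against 17.2 percent of all tested genes). The median was 0.05, and the count was 3 without WT HFD mouse 1 or ob/ob HFD mouse 3. Nqo1, a quinone reductase, was among the risers (0.43). Within 10 Mb of Lep, 14 of 79 tested genes were called (17.7 percent), against 17.2 percent elsewhere. Clec2l (2.66, adjusted p = 3.22e-04) and the kinase Hipk2 (0.82, adjusted p = 6.15e-04) were the highest of them besides Chrm2, and were chosen after their values were seen.

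**Figure D4:**
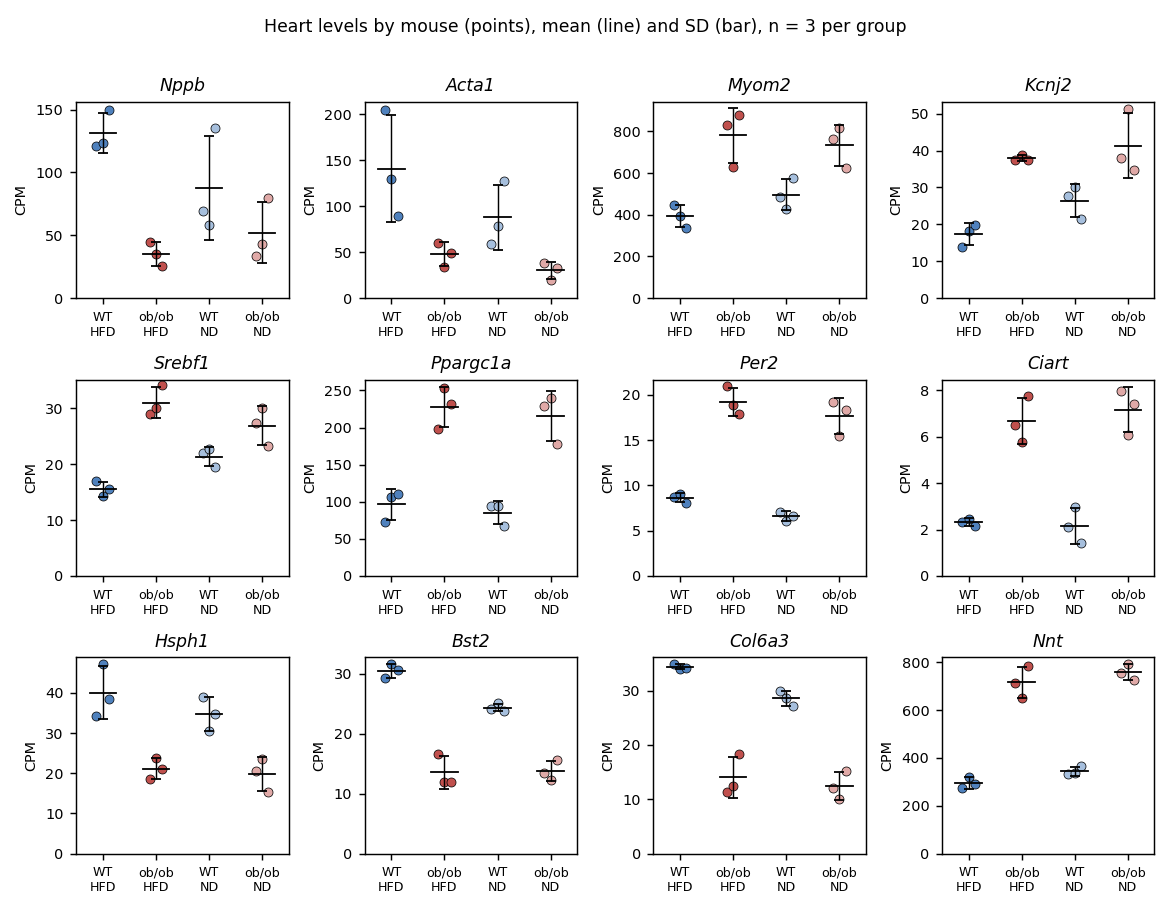
Heart levels of 12 genes in CPM, with a point for each mouse, a line at the group mean and a bar for the SD (n = 3). On HFD, Nppb, Acta1, Hsph1, Bst2 and Col6a3 are lower and Myom2, Kcnj2, Srebf1, Ppargc1a, Per2, Ciart and Nnt higher in every ob/ob heart than in any WT heart.

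The circadian clock list had the largest share of members that rose, 15 of 24, with 1 that fell and a median of 0.41. The count of risers was 8 without ob/ob HFD mouse 1, 11 after the offset on exon length and 9 with library totals in place of TMM scaling. The clock is a loop in which ARNTL (BMAL1) and CLOCK bind E-boxes and switch on their own repressors, the Per and Cry genes, and output factors such as Dbp and Tef. The hour at which the hearts were taken is not given in the sources used here. The repressor Per2 was at 8.71, 9.07 and 8.09 CPM in WT and 20.9, 18.8 and 17.8 CPM in ob/ob hearts (log2 fold change 1.15 ± 0.12, adjusted p = 2.41e-05). Another repressor, Ciart, was at 2.35, 2.47 and 2.16 CPM in WT and 6.497, 5.77 and 7.75 CPM in ob/ob hearts (log2 fold change 1.51 ± 0.22, adjusted p = 3.13e-04). Cry2 was at 12.1, 15.03 and 19.6 CPM in WT and 35.5, 31.5 and 36.6 CPM in ob/ob hearts (log2 fold change 1.15 ± 0.13, adjusted p = 4.33e-05). In these 3 genes the WT and ob/ob ranges were far apart. The outputs Dbp (0.96), Tef (0.70) and Usp2 (0.90) and the repressor Per1 (0.63) rose too. Arntl, the activator, fell, at 12.7, 15.8 and 11.4 CPM in WT and 7.86, 9.64 and 5.05 CPM in ob/ob hearts (log2 fold change -0.82 ± 0.20, adjusted p = 0.0113), a call lost without WT mouse 2 or ob/ob mouse 3 of the HFD groups (adjusted p up to 0.0581). Nr1d1, the repressor of Arntl, overlapped at 46.2, 32.7 and 52.4 CPM in WT and 44.1, 44.5 and 51.4 CPM in ob/ob hearts (0.10, adjusted p = 0.711).

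Promoter stretches are shown for some clock, interferon and heat shock genes that hold a match. Each is the 250 bases before the RefSeq start in the GRCm38.p6 build, 5′ to 3′ on the gene's strand, with motif matches in capitals. The E-box CACGTG is marked in Ciart and Tef. The interferon-stimulated response element, 2 copies of GAAA with 2 bases between them, is marked in Isg15 and Bst2. The heat shock element GAANNTTC is marked in Dnaja1.
Ciart, chr3:95882229-95882478 (- strand): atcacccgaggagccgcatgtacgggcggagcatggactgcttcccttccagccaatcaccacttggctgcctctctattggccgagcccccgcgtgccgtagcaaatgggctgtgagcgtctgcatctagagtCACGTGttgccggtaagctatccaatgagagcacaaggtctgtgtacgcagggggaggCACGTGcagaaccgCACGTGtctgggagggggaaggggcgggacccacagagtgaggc
Tef, chr15:81802423-81802672 (+ strand): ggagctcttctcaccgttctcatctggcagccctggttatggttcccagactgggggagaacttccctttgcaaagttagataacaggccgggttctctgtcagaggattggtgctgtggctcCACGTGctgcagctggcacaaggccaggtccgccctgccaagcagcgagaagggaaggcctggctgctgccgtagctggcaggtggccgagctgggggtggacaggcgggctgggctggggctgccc
Isg15, chr4:156200819-156201068 (- strand): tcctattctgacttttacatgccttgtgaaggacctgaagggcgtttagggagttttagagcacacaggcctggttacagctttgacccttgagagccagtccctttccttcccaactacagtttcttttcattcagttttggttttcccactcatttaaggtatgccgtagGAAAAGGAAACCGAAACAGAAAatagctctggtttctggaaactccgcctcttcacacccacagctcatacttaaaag
Bst2, chr8:71537473-71537722 (- strand): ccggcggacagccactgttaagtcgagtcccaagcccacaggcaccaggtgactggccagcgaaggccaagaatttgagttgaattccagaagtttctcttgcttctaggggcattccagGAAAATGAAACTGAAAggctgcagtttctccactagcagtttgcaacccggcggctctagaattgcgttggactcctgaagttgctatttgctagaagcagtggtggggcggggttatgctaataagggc
Dnaja1, chr4:40722218-40722467 (+ strand): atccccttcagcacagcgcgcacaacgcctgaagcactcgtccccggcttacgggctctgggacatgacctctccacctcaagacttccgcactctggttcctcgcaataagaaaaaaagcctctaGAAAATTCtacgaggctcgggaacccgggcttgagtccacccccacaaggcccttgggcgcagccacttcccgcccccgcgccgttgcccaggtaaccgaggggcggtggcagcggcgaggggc
Both strands were searched, and in Isg15 and Bst2 the capitals are overlapping matches. Where a gene had several RefSeq starts, the one with the most matches is shown.

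Of 19 tested clock genes with a promoter in the table, 6 held an E-box in this window (Per1, Cry1, Tef, Ciart, Bhlhe41 and Tspan4), against 6.86 percent of 27025 genes, and all 6 were called higher. Of the 13 without one 7 were also called, Cry2, Dbp, Usp2, Per3, Hlf and Csnk1e higher and Arntl lower. Ciart holds 3 matches, 116, 58 and 44 bases before the start. The D-box TTATGTAA, to which DBP and TEF bind, was found in 1, Per3, against 0.977 percent of genes. Of 23 interferon response genes 13 held the response element, against 3.46 percent. They made up 6 of the 11 that were called lower and 7 of the 12 that were not. Of 25 heat shock genes 10 held the heat shock element, against 7.73 percent, 5 of them among the 13 called. These are matches of letters and not binding sites, and a window without a match says only that those letters are not in it.

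More chaperone genes were lower than higher in ob/ob hearts. Of 30 genes of the cytosolic heat shock list 13 fell and 4 rose, with a median of -0.27, and 11 fell after the offset on exon length. The number that fell was 7 without WT HFD mouse 2 and 8 without ob/ob HFD mouse 2. Hsph1, a large chaperone of the HSP110 family, was at 34.3, 47.2 and 38.5 CPM in WT and 18.6, 23.8 and 21.2 CPM in ob/ob hearts (log2 fold change -0.92 ± 0.15, adjusted p = 6.63e-04). Dnaja1, a J-domain partner of HSP70, was at 55.95, 72.8 and 56.4 CPM in WT and 32.2, 38.5 and 38.6 CPM in ob/ob hearts (log2 fold change -0.76 ± 0.12, adjusted p = 6.63e-04). No ob/ob heart reached the lowest WT heart for either gene. The inducible Hsp90aa1 (-0.62) and Chordc1, a partner of HSP90 (-0.65), fell as well. The inducible HSP70 gene Hspa1a was low, at 1.51, 3.10 and 0.940 CPM in WT and 0.769, 0.602 and 0.451 CPM in ob/ob hearts (-1.61, adjusted p = 0.0324), and its call was lost without any 1 of the HFD hearts except WT mouse 3. It has a near-identical copy, Hspa1b, which was not called (-0.93, adjusted p = 0.190). The members that rose included both cold-inducible RNA-binding proteins, which are known to increase at lower temperature. Cirbp was at 33, 30.5 and 40.2 CPM in WT and 85.1, 61.4 and 63.2 CPM in ob/ob hearts (log2 fold change 1.02 ± 0.13, adjusted p = 1.03e-04), and Rbm3 was at 52.8, 36.7 and 55.6 CPM in WT and 122, 86.1 and 96.1 CPM in ob/ob hearts (log2 fold change 1.07 ± 0.15, adjusted p = 2.73e-04). On HFD these were 1.61 (adjusted p = 1.88e-04) and 1.19 (adjusted p = 0.00156) in liver. Body temperature is not in the tables used here.

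The same held for genes of the unfolded protein and integrated stress responses. Of 30 tested 10 fell and 1 rose (Atf3), with a median of -0.18, 10 after the offset on exon length and 6 without WT HFD mouse 2. Atf5, a transcription factor of mitochondrial and amino acid stress, was at 53.2, 48.5 and 62.7 CPM in WT and 23.5, 30.3 and 30.2 CPM in ob/ob hearts (log2 fold change -0.97 ± 0.12, adjusted p = 9.09e-05). Pdia4, a disulfide isomerase of the endoplasmic reticulum, was at 23.5, 27.9 and 21.9 CPM in WT and 13.5, 13.1 and 15.1 CPM in ob/ob hearts (log2 fold change -0.82 ± 0.11, adjusted p = 1.23e-04). The groups were separate in both. Mthfd2, a mitochondrial folate enzyme under ATF4, was low in both groups, at 4.61, 4.45 and 7.62 CPM in WT and 1.37, 2.15 and 2.34 CPM in ob/ob hearts (log2 fold change -1.497 ± 0.26, adjusted p = 0.00127). The chaperone cofactor Sdf2l1 (-1.29) and the secreted Manf (-0.59) fell as well.

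Interferon response genes fell more often than any other list: 16 of 32 fell and 0 rose, with a median of -0.62, and 14 to 19 fell when each library was left out in turn. Bst2 (tetherin), whose promoter is shown above, was at 29.2, 31.6 and 30.6 CPM in WT and 16.7, 11.96 and 11.99 CPM in ob/ob hearts (log2 fold change -1.17 ± 0.12, adjusted p = 2.41e-05). The ubiquitin-like modifier Isg15 was at 9.80, 10.7 and 9.40 CPM in WT and 4.02, 5.85 and 2.88 CPM in ob/ob hearts (log2 fold change -1.23 ± 0.20, adjusted p = 6.63e-04), and the guanylate-binding protein Gbp2 at 25.5, 26.4 and 24.3 CPM in WT and 13.1, 12.2 and 11.1 CPM in ob/ob hearts (log2 fold change -1.07 ± 0.14, adjusted p = 1.64e-04). In all 3 the highest ob/ob heart was below the lowest WT heart. Ifi27 (-0.99) and Gbp3 (-1.11), both interferon-induced, fell as well. Of 19 cytokine and chemokine genes 4 fell and 0 rose, with a median of -0.35. The share called was 21.1 percent, against 17.2 percent of all tested genes. Those lower were Cxcl9, the stromal chemokine Cxcl12 (-0.66), Ccl9 (-0.71) and Ccl2, which draws in monocytes. Ccl2 was at 3.94, 2.47 and 6.77 CPM in WT and 1.71, 2.32 and 1.62 CPM in ob/ob hearts (log2 fold change -1.19 ± 0.33, adjusted p = 0.0203). The calls of Ccl2 and Cxcl12 were lost without single hearts (adjusted p up to 0.114 and 0.0561), that of Cxcl12 without ob/ob mouse 2 and that of Ccl2 without WT mouse 3, ob/ob mouse 1 or ob/ob mouse 3 of the HFD groups.

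Several markers of immune cells were lower beside them. Of 25 macrophage markers 9 fell and 1, Lpl, rose, with a median of -0.40, and the number that fell was 4 without WT HFD mouse 1 and 5 without ob/ob HFD mouse 3. Without Lpl, which cardiomyocytes also express, the summed level of the list was 878 to 1083 CPM in WT and 597 to 818 CPM in ob/ob hearts. The F4/80 gene Adgre1 was at 22.4, 21.2 and 15.8 CPM in WT and 10.4, 11.7 and 9.19 CPM in ob/ob hearts (log2 fold change -0.93 ± 0.20, adjusted p = 0.00462). Folr2, a marker of resident macrophages, was at 7.87, 6.76 and 6.67 CPM in WT and 4.53, 2.84 and 3.15 CPM in ob/ob hearts (log2 fold change -1.01 ± 0.21, adjusted p = 0.00364). Neither overlapped. F13a1 (-0.68) and Cd209f (-2.51) fell as well, the latter at low levels. Of 14 lymphocyte and MHC class II genes 6 fell and 0 rose, with a median of -0.64, but this count was 0 without WT HFD mouse 1 or ob/ob HFD mouse 3 and 2 without ob/ob HFD mouse 1, and 3 after the offset on exon length. H2-Aa, an MHC class II chain, was at 90.8, 76.4 and 77.3 CPM in WT and 47.2, 59.1 and 45.6 CPM in ob/ob hearts (log2 fold change -0.69 ± 0.18, adjusted p = 0.0153), and -0.60 (adjusted p = 0.0665) without WT mouse 1, a call lost as well without ob/ob mouse 1 or 3. The summed level of all 20 listed genes was 307 to 367 CPM in WT and 197 to 256 CPM in ob/ob hearts. The part of immune cell number in the lower interferon genes was not tested.

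Matrix genes were called in both directions. Of 36 collagen and matrix genes 9 fell and 3 rose, with a median of -0.23, 11 falling after the offset on exon length and 5 without WT HFD mouse 1, ob/ob HFD mouse 1 or ob/ob HFD mouse 2. The collagen VI chain gene Col6a3 was at 34.8, 34.04 and 34.2 CPM in WT and 11.3, 12.5 and 18.4 CPM in ob/ob hearts (log2 fold change -1.29 ± 0.15, adjusted p = 5.19e-05). The 3 WT values were nearly equal and the ob/ob values all far below. The fibrillar collagen Col3a1 was at 233, 168 and 186 CPM in WT and 86.9, 89.6 and 121 CPM in ob/ob hearts (log2 fold change -0.98 ± 0.19, adjusted p = 0.00252). Lysyl oxidase (Lox), which cross-links collagen, was at 4.69, 4.61 and 4.61 CPM in WT and 14.7, 13.8 and 9.46 CPM in ob/ob hearts (log2 fold change 1.45 ± 0.20, adjusted p = 1.89e-04), higher in each ob/ob heart, whereas its relative Loxl1 fell (-0.43). Col1a1 fell as well (-0.50, adjusted p = 0.0308), a call lost without WT mouse 1 (-0.39, adjusted p = 0.136), WT mouse 2, ob/ob mouse 1 or ob/ob mouse 2, and Postn was not called (-0.97, adjusted p = 0.0640). Of 16 fibroblast markers 7 fell and 0 rose, with a median of -0.41 and a count of 2 without WT HFD mouse 1, 4 without ob/ob HFD mouse 1 and 3 without ob/ob HFD mouse 2 or ob/ob HFD mouse 3. Their summed level was 4026 to 4920.4 CPM in WT and 3620.0 to 4052 CPM in ob/ob hearts, overlapping between the genotypes. Without Gsn, the most abundant gene of the list, it was 2072 to 2642 CPM in WT and 1799 to 2054 CPM in ob/ob hearts, without overlap. Dpt, a matrix protein of fibroblasts, was at 236, 157 and 205 CPM in WT and 147, 131 and 119.9 CPM in ob/ob hearts (log2 fold change -0.59 ± 0.14, adjusted p = 0.00822). The part of fibroblast number in the lower collagen levels was not tested. Of 20 endothelial markers 3 fell and 1 rose (Nos3, the endothelial nitric oxide synthase), with a median of -0.04. The share called was 20 percent, against 17.2 percent of all tested genes. Risers were 0 without WT HFD mouse 1, WT HFD mouse 3, ob/ob HFD mouse 1, ob/ob HFD mouse 2 or ob/ob HFD mouse 3. Those lower included Ly6c1 (-0.51, which has a near-identical copy) and Emcn (-0.49), and the summed level overlapped (3096 to 3670.3 CPM in WT and 2902 to 3305 CPM in ob/ob hearts).

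Of 23 glucocorticoid-responsive genes 6 rose and 0 fell, with a median of 0.07 and a count of 3 without ob/ob HFD mouse 2. Fkbp5, a chaperone cofactor induced by the glucocorticoid receptor, was at 61.3, 52.7 and 43.2 CPM in WT and 92.7, 113 and 86.9 CPM in ob/ob hearts (log2 fold change 0.90 ± 0.16, adjusted p = 0.00123). Klf9, a transcription factor of the same response, was at 79.99, 85.5 and 61.95 CPM in WT and 111, 110.2 and 121 CPM in ob/ob hearts (log2 fold change 0.59 ± 0.11, adjusted p = 0.00268). The groups did not overlap for either. Per1, counted with the clock above, is also a member, and glucocorticoid hormone is not in the tables used here. In the leptin axis, 3 of 8 genes were called, all higher and all close to the threshold. Lepr, the leptin receptor, was at 3.85, 3.02 and 3.67 CPM in WT and 5.73, 7.83 and 5.05 CPM in ob/ob hearts (log2 fold change 0.82 ± 0.28, adjusted p = 0.0493), and Socs3, which leptin induces through STAT3 in cells that carry the receptor, at 3.52, 3.90 and 4.14 CPM in WT and 9.92, 9.21 and 4.42 CPM in ob/ob hearts (log2 fold change 1.03 ± 0.33, adjusted p = 0.0420). The count was 0 without WT HFD mouse 1, WT HFD mouse 3 or ob/ob HFD mouse 2 and 1 without WT HFD mouse 2, ob/ob HFD mouse 1 or ob/ob HFD mouse 3, 1 after the offset on exon length and 0 with library totals in place of TMM scaling. Lep itself was below the filter.

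Of 20 genes of muscle protein breakdown and autophagy 5 rose and 0 fell, with a median of 0.16. The count was 3 without WT HFD mouse 2, ob/ob HFD mouse 2 or ob/ob HFD mouse 3 and 2 without WT HFD mouse 3, and 8 after the offset on exon length. Myostatin (Mstn), a secreted brake on muscle growth, was low but separate, at 0.670, 0.477 and 0.376 CPM in WT and 2.05, 1.98 and 3.43 CPM in ob/ob hearts (log2 fold change 2.25 ± 0.50, adjusted p = 0.00650). The autophagy kinase Ulk1 was at 40.7, 44.4 and 37.2 CPM in WT and 52.8, 58.8 and 56.2 CPM in ob/ob hearts (log2 fold change 0.45 ± 0.08, adjusted p = 0.00182). Among 22 immediate early genes 4 rose and 2 fell, with a median of -0.03, and without ob/ob HFD mouse 2 the counts were 2 and 1. The nuclear receptor Nr4a3 was at 5.78, 15.5 and 12.03 CPM in WT and 35.1, 33.2 and 43.3 CPM in ob/ob hearts (log2 fold change 1.74 ± 0.30, adjusted p = 0.00119), with WT mouse 1 the lowest, and the matricellular Ccn1 at 37.9, 52.98 and 30.7 CPM in WT and 22.9, 16.4 and 20.8 CPM in ob/ob hearts (log2 fold change -1.02 ± 0.23, adjusted p = 0.00695). Ccn1 was lower and its relative Ccn2 higher in each ob/ob heart. Of 19 cell division genes 1 rose and 3 fell, with a median of -0.40. The share called was 21.1 percent, against 17.2 percent of all tested genes, and the calls depended on single hearts. Risers were 0 without WT HFD mouse 2, WT HFD mouse 3, ob/ob HFD mouse 1, ob/ob HFD mouse 2 or ob/ob HFD mouse 3. Fallers were 1 without WT HFD mouse 1, ob/ob HFD mouse 1 or ob/ob HFD mouse 2. They were 0 without WT HFD mouse 2 or ob/ob HFD mouse 3. None of 12 polyamine synthesis genes was called (median -0.008). The number called higher was 1 without ob/ob ND mouse 2 or ob/ob ND mouse 3. It was also 1 with the 6 HFD libraries alone, without mitochondrially encoded genes or without the filter on low counts. Of 17 complement and acute phase genes 2 rose and 1 fell, with a median of -0.01. That is 17.6 percent called, against 17.2 percent of all tested genes. The risers were 1 without WT HFD mouse 2, WT HFD mouse 3, ob/ob HFD mouse 1 or ob/ob HFD mouse 2, and the faller count was 0 without WT HFD mouse 1, ob/ob HFD mouse 1, ob/ob HFD mouse 2 or ob/ob HFD mouse 3. Ceruloplasmin (Cp), a copper-carrying ferroxidase, was at 83.8, 85.9 and 80.2 CPM in WT and 114, 122 and 114 CPM in ob/ob hearts (log2 fold change 0.49 ± 0.08, adjusted p = 8.71e-04), and this call was kept under all alternatives tried.

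The genotype difference on HFD was set beside that on ND, where 1742 of 13673 genes were called (12.7 percent), 856 higher (6.26 percent) and 886 lower (6.48 percent). With library totals in place of TMM scaling the ND split was 418 higher and 1477 lower, and the median over all genes moved to -0.12. Without WT ND mouse 1, WT ND mouse 3 or ob/ob ND mouse 2, 1141, 1108 and 1117 genes were called on ND. These comparisons share no library, though they share the estimate of the spread. Of the HFD calls, 961 were also called on ND (40.9 percent of HFD and 55.2 percent of ND calls), all in the same direction, and 2230 (94.9 percent) had the same sign. The difference between the diets was called for 0 genes by edgeR (smallest adjusted p = 0.0979, for Cp), with 1087 at an unadjusted p under 0.05, for 8 genes by DESeq2, for 177 without a filter on low counts, and for 1 without ob/ob ND mouse 1. Cp had a fold change of 0.49 on HFD and -0.24 on ND (difference 0.73 ± 0.11). Among the genes described above, Myh6 was 0.52 on HFD and -0.01 on ND, Srebf1 0.997 and 0.33, Nppb -1.91 and -0.74, and Acta2 -2.17 and -0.36, with adjusted p values of the difference of 0.449, 0.330, 0.575 and 0.548. Genes with nearly the same value on both diets were Wdfy1 (1.97 and 2.14), Acta1 (-1.56 and -1.54), Pik3r1 (0.85 and 0.85) and Ppargc1a (1.24 and 1.34).

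**Figure D5:**
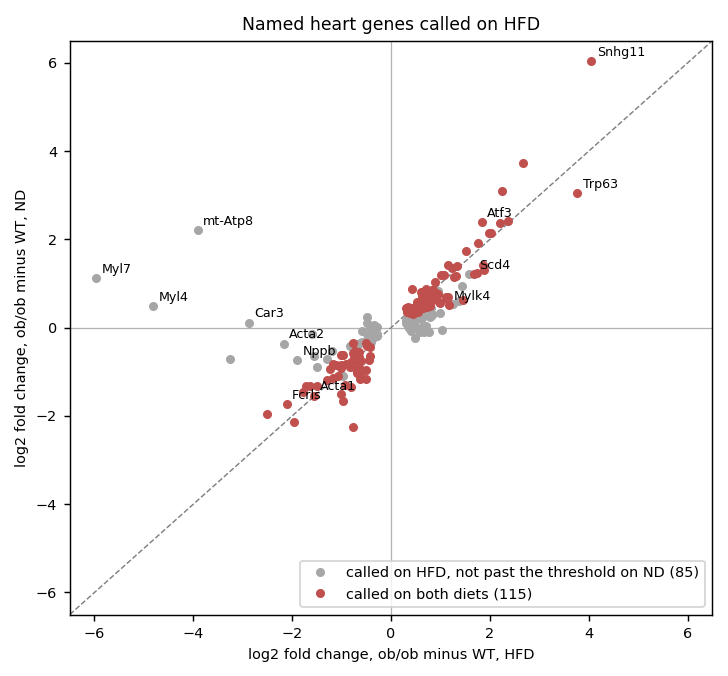
Log2 fold change of ob/ob minus WT in heart on HFD (x) and on ND (y) for the 200 named genes called on HFD. Red points (115) were also called on ND, grey points (85) were not past the threshold there, and the dashed line marks equal values. Most points lie near the line, while Myl7, Myl4, mt-Atp8, Car3 and Pck1, whose calls were lost without WT HFD mouse 1, lie far from it.

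The same contrast on HFD in 3 other tissues of these mice is given side by side, without a test of the difference between tissues. Of the 20 highest and lowest heart genes, 5 of the 16 tested in aorta, 6 of the 14 tested in liver and 1 of the 19 tested in skeletal muscle were called the same way and 0 the opposite way. The calls in skeletal muscle were 0 to 4 when single libraries were left out, and 0 with the mouse number as a block. Over all genes 16.2 percent were called in aorta (8.34 percent higher and 7.84 percent lower), 18.5 percent in liver (8.61 percent higher and 9.85 percent lower) and 0.0194 percent (3 of 15452, all higher) in skeletal muscle. Wdfy1 was called in all of them, with 2.08 (adjusted p = 2.75e-05) in aorta, 2.33 (adjusted p = 7.19e-06) in liver and 1.56 (adjusted p = 0.0378) in skeletal muscle. Snhg11 was 1.499 (adjusted p = 0.0106) in aorta and 0.35 (adjusted p = 0.321) in liver. Fcrls fell in aorta (-1.504, adjusted p = 0.00943) and Ifi44 in liver (-1.92, adjusted p = 0.00321). The clock gene Per2, high in ob/ob hearts, was 0.22 (adjusted p = 0.471) in aorta, -0.19 (adjusted p = 0.522) in liver and 0.29 (adjusted p = 0.338) in skeletal muscle, and so was not called in any of these. Isg15 was lower in aorta (-1.20, adjusted p = 0.0495) and liver (-2.09, adjusted p = 1.51e-04), and Hsph1 in liver (-2.37, adjusted p = 9.89e-06).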

How the data were processed

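RNA-seq libraries of the hearts of 12 mice, 3 for each genotype and diet, were compared, with blood, body composition and weight values of the same mice. The deposited table holds fragment counts per gene for 49671 genes. Per the submitters' processing notes, the authors trimmed reads with Trimmomatic 0.36, aligned them with HISAT2 2.0.5 and counted them with featureCounts 1.5.0-p2, whereas the file header names featureCounts 1.5.1. Per the file headers the count was made without a strand or multi-mapping option, so overlapping antisense genes and near-identical copies cannot be told apart. The deposited blood, composition and weight values are single measurements per mouse, whose assays are not given in the sources used here. Symbols were taken from the reference gene table, and 345 genes without one stayed in the tests under their identifiers. Genes were kept by filterByExpr (smallest count 10, smallest total 15), scaled by TMM and tested with edgeR 4.0.16 (quasi-likelihood, R 4.3.3) over the 12 hearts with 4 group means and no covariate. P-values were adjusted by Benjamini-Hochberg over all 13673 genes at a threshold of 0.05. Standard errors are the fold change divided by the square root of F. Mouse values were compared by exact two-sided permutation tests adjusted over 18 measures. On simulated counts of 13673 genes for this contrast, the test recovered 52.2 percent of genes changed 1.5-fold, 86.6 percent at 2-fold and 95.5 percent at 4-fold, and 7 of 163 calls were unchanged genes. The simulation gave each gene the average spread for its level. It held no library that stood apart and no trend with exon length, so its rates may not carry over to the real hearts. Genes were named by rule: the 10 highest and 10 lowest called genes with a mean log2 CPM of at least 1 and no overlap, at most 6 members of each of 43 lists in order of p, and a fixed set of genes known in heart and leptin biology. Kcnip2, Per3, Cry1, Bhlhe41, Clec2l and Hipk2, and the list members given beside a count of 5 or fewer, were chosen after their values were seen. A few genes that the rule names are not reported here. The members and lists were chosen with earlier results of these data known. Alternatives were DESeq2 1.42.0, other scalings, no filter, the HFD hearts alone, no mitochondrially encoded genes, the mouse number as a block, and each library left out. The offset on exon length, and the list counts under it and without WT HFD mouse 1, were added after seeing the data. Mouse numbers were not treated as pairs, since the labels give different mice to each group. Promoters are from RefSeq (GRCm38.p6), and both strands were searched.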

Additional observations from a re-analysis of the deposited data

How the results depend on the processing

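With DESeq2, other scalings, no filter, the 6 HFD hearts alone, no mitochondrially encoded genes or the offset on exon length, the HFD count lay between 2017 and 2618. It was 1348 to 2410 when each library was left out, and the ND count was 1108 to 1776. With the mouse number as a replicate block 2368 genes were called on HFD, 1741 on ND and 0 for the difference between diets. Deviations of same-numbered hearts correlated at -0.11 to 0.14 over 18 pairs. The difference between diets gave 8 genes by DESeq2, 177 without the filter and 0 to 1 when libraries were left out. The cause of these counts was not tested, and 26201 genes entered the fit without the filter. Of the 20 highest and lowest genes, 1 was called the same way in skeletal muscle, 2 by DESeq2, 0 with the replicate block or the 6 HFD libraries alone, and 0 to 4 when libraries were left out. Of 190 called genes tried under the alternatives, 121 were called under all of them, 18 were lost with the offset on exon length and 45 without WT HFD mouse 1. Fold changes of uncalled genes, and of Myl7 and Myl4, changed sign: Cd36 was -0.0046 without TMM. When single hearts were left out, Cd36 ranged from -0.0385 to 0.0723, Nppa from -1.33 to 0.53, Myh7 from -0.17 to 0.27, Pln from -0.0219 to 0.145, Pdk4 from -0.70 to 0.21, Angptl4 from -0.46 to 0.0379, Nr1d1 from -0.0774 to 0.25, Myl7 from -7.24 to 1.49 and Myl4 from -5.40 to 0.42. Among mouse values, the difference of ob/ob minus WT ranged from -35.7 to 41.7 for glucose, -6.5 to 17.0 for triglyceride, -0.0733 to 0.362 for free water and -1.54 to 0.19 for total water. The number of fragments, 10966094 to 12374587 a library, limits genes of a few CPM most.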
